A study of Rattus norvegicus with 6 samples.

Results

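The S100 and annexin genes described here are 10 calcium-signaling genes, S100a4, S100a6, S100a8, S100a9, S100a10, S100a11, Anxa1, Anxa2, Anxa3 and Anxa5. They were chosen by symbol, with earlier results of these data known. All 10 were found among the 18166 genes measured with 1 symbol on Affymetrix Rat Gene 2.0 ST arrays. The arrays compared kidney RNA of 3 diabetic Sprague Dawley rats treated with Shenqi Jiangtang Granule (SJG), an extract of several herbs, and of 3 diabetic rats without it, all labeled as 17 weeks of age. According to the methods of the study, the rats were male, diabetes was induced in all of them by streptozotocin at 60 mg/kg, a toxin of pancreatic beta cells, the tissue was kidney cortex, and the diabetic group received saline. The study's high dose was 800 mg/kg/day for 8 weeks, which the sample labels do not state. High-fat feeding is mentioned only by the abstract. The model is one of lost insulin-producing cells, and nondiabetic rats were not analysed here, so a level cannot be set against that of a healthy kidney. The labels number the samples as replicates without naming animals, so the p-values below reflect only how these samples vary, some of which may be technical. A bracketed code in each title has 1 number for the treated and another for the diabetic samples, and its meaning is not explained, so what it stands for and the treatment cannot be told apart.

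S100 proteins are small calcium-binding proteins of the EF-hand type that usually work as dimers, inside cells as calcium sensors and outside them as signals of damage. Annexins bind acidic membrane phospholipids when calcium rises and take part in membrane repair, vesicle traffic and the control of inflammation. The families meet in complexes: S100A10 binds the tail of annexin A2, and S100A11 binds annexin A1. In the injured kidney, members of both families are known from macrophages, fibroblasts and damaged tubule cells.

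In the SJG-treated rats, 5 of the 10 genes were lower than in the diabetic rats and none was higher. These were S100a11, Anxa5, Anxa2, S100a4 and S100a10, with decreases of 1.65-fold to 2.27-fold. "Lower" and "higher" are used of genes whose unadjusted limma p was under 0.05 and whose fold change exceeded 1.5. Of all 18166 genes, 2.12% were lower by this rule. With p-values adjusted by Benjamini-Hochberg, limma called 0 genes under 0.05, and the lowest adjusted p among the 10 was 0.746. At an unadjusted limma p under 0.05 there were 1133 genes, where 908 would be expected if no gene differed. The median log2 difference was -0.63 over the 10 genes and 0.00 over all genes. In 3 of the 10 genes, Anxa2, S100a4 and S100a10, every SJG-treated array lay below every diabetic array, which was the case for 5.30% of all genes. The calls depended on single arrays, as given below. A count over 10 related genes, chosen with earlier results known and sharing 6 arrays, is a description. The values over all genes are therefore not an independent yardstick.

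**Figure D1:**
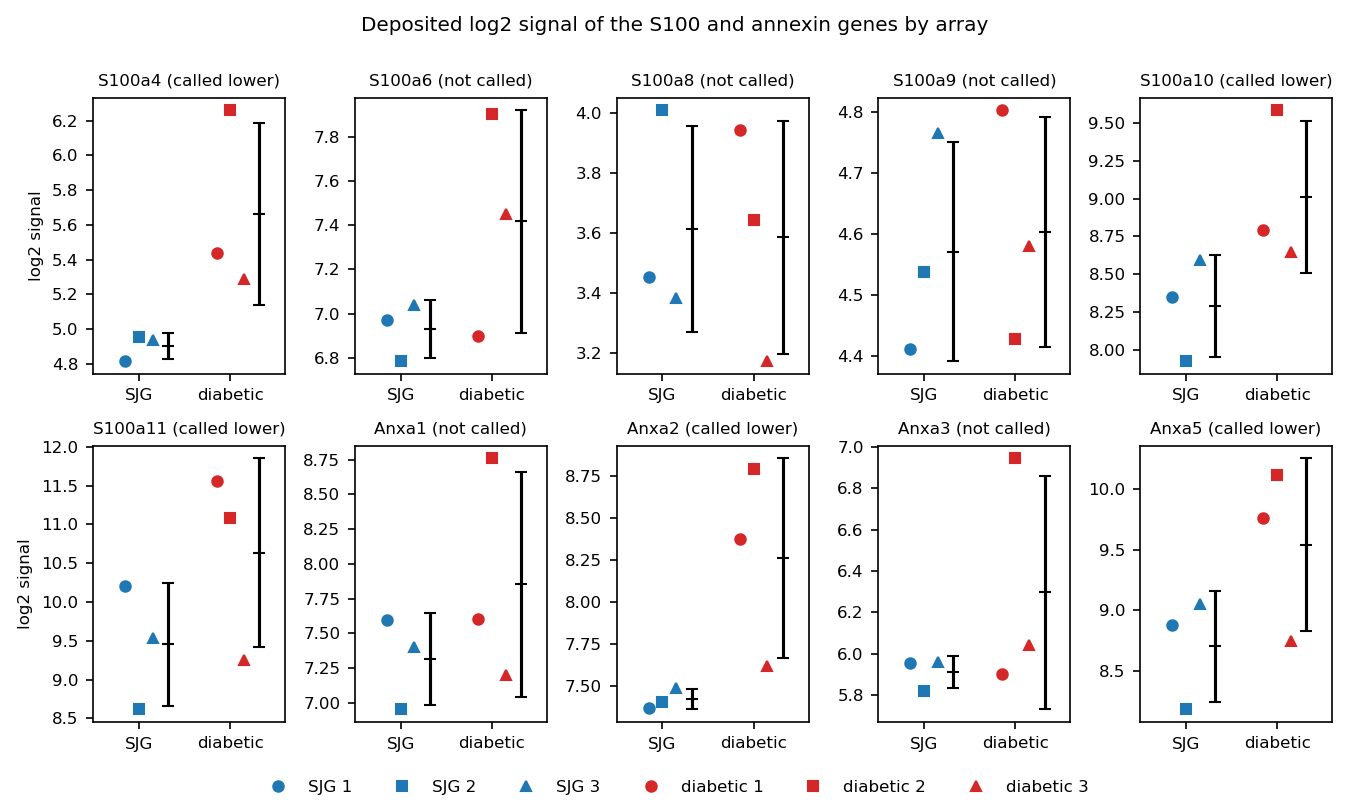
Deposited log2 signal (y axis, a separate scale in each panel) of the 10 genes in the 3 SJG-treated and 3 diabetic arrays (symbols 1 to 3), with mean and SD as black bars. Diabetic replicate 2 was the highest array in 7 of the 10 panels, and the S100a8 and S100a9 panels show overlapping groups.

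Promoter sequences of the genes that were lower are shown so that the genes past the thresholds can be compared by sequence. RefSeq promoters of the rat assembly GRCr8 were at hand for 8 of the 10 genes, with S100a8 and S100a10 missing. The 250 bases before the annotated start are printed from 5′ to 3′. Capitals mark matches on either strand to TGANTCA (the AP-1 motif), TTNNGNAA (C/EBP) or GGG and CC with any 5 bases between them. The last is a loose pattern for NF-kB, called the NF-kB motif below.
S100a4 (chr2:178388279-178388528, plus strand): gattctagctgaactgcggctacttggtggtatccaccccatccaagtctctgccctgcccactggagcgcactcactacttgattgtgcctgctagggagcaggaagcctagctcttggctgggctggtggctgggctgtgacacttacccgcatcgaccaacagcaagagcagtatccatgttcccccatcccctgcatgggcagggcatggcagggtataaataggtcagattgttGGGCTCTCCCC
S100a11 (chr2:181874882-181875131, plus strand): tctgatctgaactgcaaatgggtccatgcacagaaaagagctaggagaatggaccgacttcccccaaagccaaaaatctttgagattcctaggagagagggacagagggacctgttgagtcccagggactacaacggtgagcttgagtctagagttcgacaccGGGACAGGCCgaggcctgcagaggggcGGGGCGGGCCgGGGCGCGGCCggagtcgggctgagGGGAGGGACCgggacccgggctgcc
Anxa2 (chr8:78986002-78986251, plus strand): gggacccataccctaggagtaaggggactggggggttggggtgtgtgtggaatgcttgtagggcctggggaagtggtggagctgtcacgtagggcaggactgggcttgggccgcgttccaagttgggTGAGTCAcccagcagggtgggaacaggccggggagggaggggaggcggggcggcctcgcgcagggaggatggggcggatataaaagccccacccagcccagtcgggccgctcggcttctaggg
Anxa5 (chr2:121272697-121272946, minus strand): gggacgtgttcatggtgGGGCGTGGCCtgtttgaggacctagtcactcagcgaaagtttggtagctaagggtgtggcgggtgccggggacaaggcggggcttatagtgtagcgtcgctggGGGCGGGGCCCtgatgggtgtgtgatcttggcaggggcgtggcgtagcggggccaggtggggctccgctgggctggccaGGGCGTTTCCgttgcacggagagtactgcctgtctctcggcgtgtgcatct

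No motif was common to these 4 promoters. The Anxa2 promoter held 1 match to the AP-1 motif, TGAGTCA, starting 123 bases before the start, and 6.34% of all 33469 promoters hold one in this window. The NF-kB motif occurred in 1 stretch of the S100a4 promoter, 4 of S100a11 and 3 of Anxa5, and in 42.3% of all promoters. Some matches to this pattern overlap on opposite strands and were counted as 1 stretch. The C/EBP motif, held by 37.2% of all promoters, was not among the letters of these 4 windows. Among the genes that did not pass, the C/EBP motif was found once each in S100a9, Anxa1 and Anxa3. The NF-kB motif also occurred among them, in 2 stretches of S100a6 and in 1 each of Anxa1 and Anxa3. A match is a description of the letters and not a binding site.

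S100a4, also known as fibroblast-specific protein 1, is expressed by fibroblasts and by macrophages. In the order of replicates 1 to 3, its log2 signal was 4.82, 4.95 and 4.94 after SJG treatment and 5.44, 6.26 and 5.29 in untreated diabetic rats, an order kept in the values that follow. The SJG-treated arrays lay close together below all diabetic arrays, of which replicate 2 was the highest. The mean was 4.90 ± 0.07 (SD, n = 3) after SJG against 5.66 ± 0.52 (SD, n = 3) without it. The log2 difference was -0.76, with a standard error of 0.242 and a limma adjusted p of 0.746.

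S100a10 encodes the S100 protein known as p11, which has lost the ability to bind calcium and, together with annexin A2, helps to place ion channels in the cell membrane. Its log2 signal was 8.35, 7.93 and 8.59 with SJG against 8.79, 9.58 and 8.65 without. The groups did not overlap, although SJG replicate 3 and diabetic replicate 3 were nearly equal. The log2 difference was -0.72 (standard error 0.263, limma adjusted p = 0.758).

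Anxa2 encodes the partner of S100A10, a receptor for plasminogen and its activator at the cell surface. Its log2 signal was 7.37, 7.41 and 7.49 in the treated rats against 8.37, 8.79 and 7.62 in the diabetic rats. As for S100a10, all diabetic arrays were above all SJG-treated arrays and diabetic replicate 3 was the closest to them. The mean was 7.42 ± 0.06 (SD, n = 3) after SJG against 8.26 ± 0.59 (SD, n = 3) without it, a log2 difference of -0.84 (standard error 0.260, limma adjusted p = 0.746).

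S100a11, which encodes a partner of annexin A1 also named calgizzarin, had the largest difference and the widest spread. The treated rats had log2 signals of 10.21, 8.62 and 9.54, and the diabetic rats had 11.56, 11.08 and 9.26. Diabetic replicates 1 and 2 were above all SJG-treated arrays, while diabetic replicate 3 was below SJG replicates 1 and 3. The log2 difference was -1.18 with a 95% interval from -2.35 to -0.01 (limma adjusted p = 0.772). The annotation lists 5 pseudogenes of S100a11 and 1 each of S100a10 and Anxa2. Whether the probes also detect such copies was not tested.

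Anxa5 encodes the annexin that binds phosphatidylserine on dying cells and platelets. Its log2 signal was 8.87, 8.18 and 9.05 with SJG against 9.76, 10.12 and 8.74 without. The groups overlapped through diabetic replicate 3, which was below SJG replicates 1 and 3. The log2 difference was -0.84 (standard error 0.336, limma adjusted p = 0.772), with means of 8.70 ± 0.46 (SD, n = 3) after SJG against 9.54 ± 0.71 (SD, n = 3) without it.

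The other 5 genes did not pass the thresholds. S100a6 encodes calcyclin, an S100 protein of proliferating cells. Its log2 signal was 6.97, 6.78 and 7.04 with SJG against 6.90, 7.90 and 7.45 without. Diabetic replicate 1 lay inside the SJG range, and the log2 difference was -0.49 with a 95% interval from -1.01 to 0.04. Anxa1 encodes a glucocorticoid-induced annexin that limits neutrophil recruitment through formyl peptide receptors. The treated rats had log2 signals of 7.59, 6.95 and 7.40, and the diabetic rats had 7.60, 8.76 and 7.20. Diabetic replicate 2 stood alone above the rest, and the log2 difference was -0.54 (95% interval from -1.30 to 0.22). Anxa3, an annexin abundant in neutrophils, had log2 signals of 5.95, 5.82 and 5.96 with SJG against 5.90, 6.95 and 6.04 without. Again diabetic replicate 2 was far above the other arrays, with a log2 difference of -0.38 (95% interval from -0.94 to 0.18).

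S100a8 and S100a9 encode the subunits of calprotectin, which neutrophils and monocytes release and which signals through Toll-like receptor 4. S100a8 had log2 signals of 3.45, 4.01 and 3.38 with SJG against 3.94, 3.64 and 3.17 without. S100a9 had log2 signals of 4.41, 4.54 and 4.76 with SJG against 4.80, 4.43 and 4.58 without. For each gene the arrays of both groups were intermingled. The log2 difference was 0.03 for S100a8 (95% interval from -0.50 to 0.56) and -0.03 for S100a9 (95% interval from -0.43 to 0.37). A decrease in array signal as large as the estimate for S100a4 lies outside both intervals. The mean signal of S100a8 was at percentile 15.5 of all genes and that of S100a9 at percentile 32.5. Brightness also depends on the probes, and the arrays carry no detection call, so a difference in RNA may not be detectable at this signal.

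**Figure D2:**
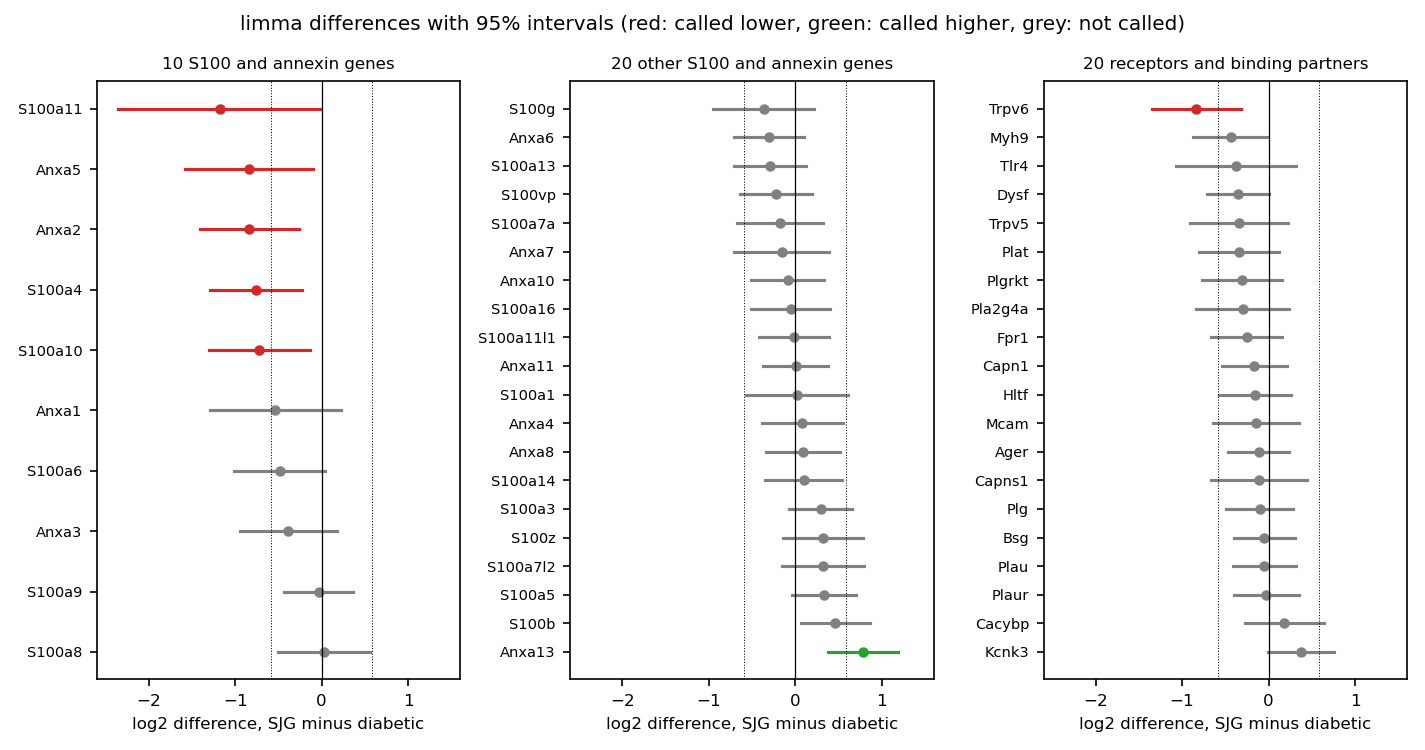
Log2 difference, SJG minus diabetic (x axis), with 95% limma intervals for the 10 genes, the 20 other S100 and annexin genes and 20 genes of receptors and binding partners. Dotted lines mark a 1.5-fold change, and 5, 1 and 1 genes were called in the panels from left to right.

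The arrays within a group were not alike. Diabetic replicate 2 was the highest array for 7 of the 10 genes and diabetic replicate 1 for 2, while SJG replicate 2 was the lowest for 6 and SJG replicate 1 for 3. The standard deviation was larger in the diabetic rats for all 10 genes. Diabetic replicate 3 was above all SJG-treated arrays for 5 genes, within their range for 4 and below it for 1, S100a8. Its mean over the 10 genes was 6.80, inside the SJG range of 6.52 to 6.81, whereas diabetic replicates 1 and 2 had means of 7.31 and 7.75.

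Leaving out diabetic replicate 2, 0 of the 10 genes passed the thresholds, although all of S100a4, S100a10, S100a11, Anxa2 and Anxa5 kept a negative difference, between -0.96 and -0.43. In that comparison 1.28% of all genes were lower. The unadjusted limma p of S100a4 and Anxa2 was still under 0.05 there, at log2 differences of -0.46 and -0.57, short of a 1.5-fold change. The difference of Anxa1 went from -0.54 to -0.08 and that of Anxa3 from -0.38 to -0.06. Leaving out diabetic replicate 3 instead, 6 of the 10 were lower, with Anxa1 as the sixth, against 5.58% of all genes. In that comparison Anxa2 at -1.16 (limma adjusted p = 0.0223) and S100a11 at -1.87 (limma adjusted p = 0.0380) also passed after adjustment over all genes. In total 166 of 18166 genes did so there, against 0 with all arrays. Diabetic replicate 3 had the lowest diabetic mean over the 10 genes, so leaving it out widens their mean difference. These adjusted p-values hold only for that choice of arrays. Leaving out SJG replicate 2 left Anxa2 and S100a4 lower. Without diabetic replicate 1, Anxa5 and S100a11 did not pass and S100a6 was lower at -0.74, and without SJG replicate 3, S100a11 did not pass. S100a4 and Anxa2 were lower in 5 of the 6 comparisons with an array left out, S100a10 in 4, Anxa5 in 3 and S100a11 in 2. With an equal-variance test of each gene on its own, 0 of the 10 passed.

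**Figure D3:**
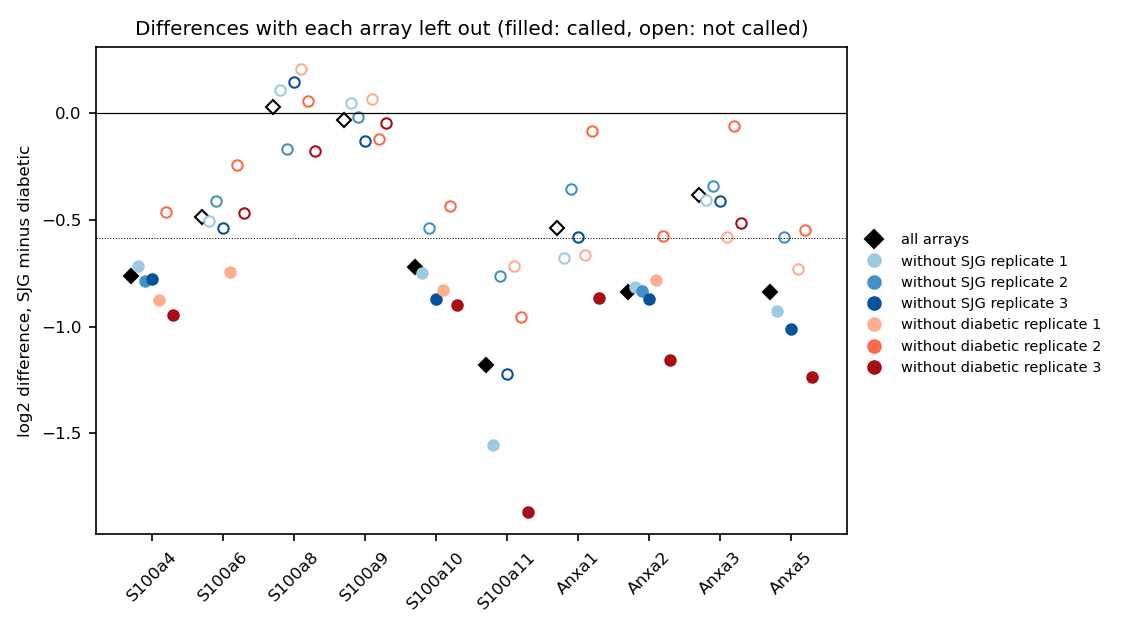
Log2 difference, SJG minus diabetic (y axis), of the 10 genes with all arrays (diamonds) and with each array left out (circles). Filled symbols passed the thresholds, and without diabetic replicate 2 none of the 10 is filled.

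Markers of macrophages followed a similar course over the arrays. Against 2.12% of all genes, 7 of 12 macrophage markers were lower with SJG, among them Lyz2, Cd14, Cd68 and Mrc1. None was higher, and the median log2 difference of the 12 was -0.67. Their mean signal was 6.02 to 6.21 in the SJG-treated arrays and 6.87, 7.42 and 6.17 in diabetic replicates 1 to 3, so that diabetic replicate 3 again lay inside the SJG range. Of 11 markers of injured tubules 5 were lower, including Havcr1, Lcn2, Spp1 and Cd44, and none was higher, against the same 2.12%. The median log2 difference of the 11 was -0.45. The other 6 did not pass, with Krt8 at -0.0001 and Krt19 and Sox9 positive, at 0.09 and 0.16. The mean of this list was 6.04 to 6.55 with SJG and 6.78 to 7.64 in the diabetic rats. Of 9 markers of fibroblasts and myofibroblasts 1, Pdgfrb, was lower, against 2.12% of all genes. The other 8 did not pass. Differences were negative in 7 of the 9 and positive in Lum and Postn, at 0.29 and 0.39. The list means were 6.13 to 6.50 with SJG and 6.33, 7.34 and 6.33 in diabetic replicates 1 to 3. Diabetic replicates 1 and 3 thus lay inside the SJG range. The part of these cell types in the differences of the S100 and annexin genes was not tested. In bulk RNA of kidney tissue, fewer cells of a type and less RNA per cell cannot be told apart.

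Of 11 neutrophil markers, 0 passed the thresholds in limma, 1 had an unadjusted p under 0.05, and their median log2 difference was 0.04. The mean of the neutrophil list was 3.88 to 4.09 in the SJG-treated arrays and 3.90 to 3.997 in the diabetic arrays, which overlapped as they did for S100a8 and S100a9. Of 3 red blood cell genes Hba-a1 and Hbb-b1 were higher, and of 5 adipocyte genes Adipoq was higher, against 0.991% of all genes. Slc4a1, the remaining red blood cell gene, had a log2 difference of -0.09 and overlapping groups. The other 4 adipocyte genes did not pass, with log2 differences from 0.41 to 0.97. Among 11 markers of kidney tubules and podocytes 0 passed in limma, 1 had an unadjusted p under 0.05, and their mean signal was 10.01 to 10.40 over the 6 arrays, so the markers of the labeled tissue were present.

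**Figure D4:**
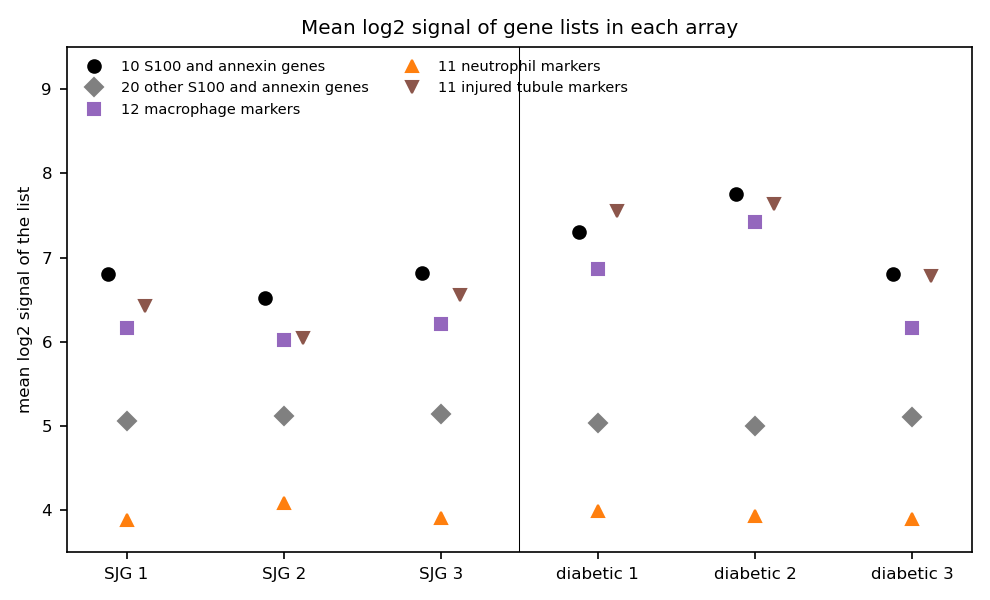
Mean log2 signal (y axis) of 5 gene lists in each of the 6 arrays (x axis). The 10 S100 and annexin genes, the macrophage markers and the injured tubule markers are highest in diabetic replicates 1 and 2. The neutrophil list, whose genes all lie below the median signal of all genes, stays between 3.88 and 4.09.

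Of 20 other S100 and annexin genes on the arrays none was lower and 1 was higher, against 0.991% of all genes called higher, and the median log2 difference was 0.01. The gene that was higher was Anxa13, an annexin of intestinal and kidney epithelia. Its log2 signal was 4.77, 5.04 and 4.82 in the treated rats against 3.97, 3.94 and 4.37 in the diabetic rats. The groups were separate, and the log2 difference was 0.78 (standard error 0.185, limma adjusted p = 0.702). Anxa13 was called with any 1 array left out. In 4 of the 20 genes, Anxa13, S100b, S100a3 and S100a5, every SJG-treated array was above every diabetic array, as in 5.20% of all genes, and in Anxa6 every one was below. The mean signals of these 4 genes were at percentiles 30.5, 22.1, 10.7 and 4.53 of all genes. S100b, a glial S100 gene, had a log2 difference of 0.46 (standard error 0.182, limma adjusted p = 0.772), under the fold change threshold. S100g, which encodes a small calbindin known from the intestine, had -0.36, and without SJG replicate 1 it passed as lower.

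None of the rest of the 20 passed the thresholds. Log2 differences were negative in Anxa6, S100a13, S100vp, S100a7a, Anxa7, Anxa10, S100a16 and S100a11l1 and positive in Anxa11, S100a1, Anxa4, Anxa8, S100a14, S100a3, S100z, S100a7l2 and S100a5. They ranged from -0.30 in Anxa6 to 0.33 in S100a5. S100pbp, which encodes a protein that binds an S100 protein and belongs to neither family, had -0.15.

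Most S100 genes lie in a cluster on rat chromosome 2. In the GRCr8 annotation S100a4 stands between S100a3 and S100a5. S100a11 and S100a10 stand apart from the main cluster with 1 other annotated entry between them. S100a4 was lower, while S100a3 and S100a5 on either side had log2 differences of 0.30 (95% interval from -0.07 to 0.66) and 0.33 (95% interval from -0.03 to 0.70). Both were dim, at percentiles 10.7 and 4.53 of all genes, and 2 other annotated entries lie between S100a3 and S100a4. S100a6, the next gene after S100a5, had -0.49. S100a8 and S100a9, which are direct neighbors, both had differences close to 0, and the neighbors S100a11 and S100a10 were both lower. The genes next to each other thus held values on both sides of 0 in the main cluster.

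**Figure D5:**
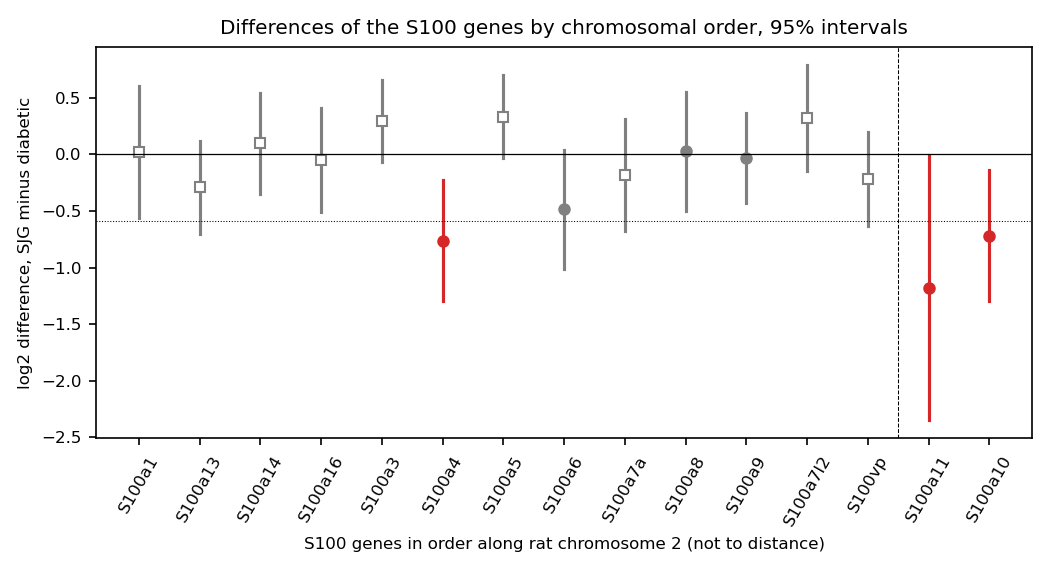
Log2 difference, SJG minus diabetic (y axis), with 95% limma intervals for 15 S100 genes in their order along rat chromosome 2 (x axis, not to distance). Filled circles are the S100 genes described here and open squares the others. Red marks S100a4, S100a11 and S100a10 as lower, and the dashed line separates the pair apart from the main cluster.

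Of 20 receptors and binding partners of these proteins, 1 was lower, against 2.12% of all genes, none was higher and 19 did not pass. Their median log2 difference was -0.16. It was Trpv6, an epithelial calcium channel that the annexin A2 and S100A10 complex is known to bring to the membrane. The treated rats had log2 signals of 4.38, 4.06 and 3.98, and the diabetic rats had 5.06, 5.37 and 4.50. The groups did not overlap, and the log2 difference was -0.84 (standard error 0.232, limma adjusted p = 0.746). Trpv6 was called with any 1 array left out. Its relative of the distal tubule, Trpv5, had -0.34 and did not pass. Without diabetic replicate 3, Trpv5 and Tlr4 were lower as well.

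Among the receptors, Ager, which encodes the receptor for advanced glycation end products and S100 proteins, had a log2 difference of -0.11 (95% interval from -0.47 to 0.24). Tlr4, the Toll-like receptor for calprotectin, had -0.37. Its log2 signals were 5.66, 5.41 and 5.63 with SJG against 5.96, 6.70 and 5.16 without, with diabetic replicate 3 the lowest of all. In the plasminogen system, to which annexin A2 and S100A10 bind, Plat had -0.34, and the activator Plau, its receptor Plaur and Plg had differences between -0.10 and -0.02. Myh9, which encodes the myosin heavy chain bound by S100A4, had -0.44 with an unadjusted p under 0.05, below the fold change threshold, although its groups did not overlap. The groups were also separate, in opposite directions, for Dysf, which encodes the membrane repair protein dysferlin, and Kcnk3, which encodes a potassium channel bound by S100A10. The log2 difference was -0.35 for Dysf (95% interval from -0.71 to 0.01) and 0.38 for Kcnk3 (95% interval from -0.01 to 0.76), and neither passed the thresholds.

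Over the 6 arrays, the genes whose pattern was most like that of the 10 were Dpysl2, Bgn, Ckap4, Sparc and Fn1. The measure was Pearson's correlation with the mean of the 10 standardized signals, a description over 6 arrays that fall into the groups compared, and these are the 5 highest of 9044 genes above the median signal, counted without the 10 genes, provisional symbols and olfactory receptors. It was 0.999 for Dpysl2, 0.995 for Bgn, 0.993 for Ckap4, and 0.992 for each of Sparc and Fn1. Bgn, Sparc and Fn1, which encode the matrix proteins biglycan, osteonectin and fibronectin, were lower with log2 differences of -1.04, -0.64 and -1.24. Dpysl2 at -0.37 and Ckap4 at -0.27 did not pass. Among the 9044 genes, 366 had a correlation above 0.9.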

How the data were processed

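The authors deposited 1 log-scale signal for each of 36685 transcript clusters (probe sets of 1 transcript) in each of 6 arrays, taken here as log2 because the values run from 0.25 to 13.7. Background correction, normalization and summarization, each not given in the sources used here, were left as they were. No arrays were identical. Names came from the array's annotation, updated by gene number to GRCr8 (18394 of 18511 clusters with 1 gene matched), and the brightest cluster stood for each gene. Each of the 10 genes had 1 cluster.

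Differences, SJG minus diabetic, were fitted over all genes with limma 3.58.1 in R 4.3.3 (lmFit, eBayes, two-sided), with no filter and no block. The code was tested on simulated data.

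The 10 genes and the lists were chosen with earlier results of these data known. Named were all S100 and annexin genes, the 2 partners with the smallest p, up to 4 markers per list by p, and the 5 genes most alike in pattern. Single members that changed in an alternative, some partners of known function and some further list genes were chosen after their values were seen. Fpr2, Cd36 and Ahnak, among others, were not analysed here. No protein sequences were at hand. The number of arrays limits the precision. Alternatives are given in the closing section.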

Additional observations from a re-analysis of the deposited data

How the results depend on the processing

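The count of S100 and annexin genes past the thresholds, 5 of 10, was 4 or 5 with trend and robust variance, quantile normalization, centring, array weights, the mean of transcript clusters and the replicate block. It was 0 with the unmoderated test, 3 of the 7 genes above the median signal, 1 at a fold change above 2, and 0 to 6 with each array left out in turn. The count over all genes, 565, was 153 with the unmoderated test, 326 above the median signal, 1133 at a fold change above 1.2, 106 at a fold change above 2 and 403 to 1449 with arrays left out. For the other S100 and annexin genes and for the partners alike, the count of 1 was 2 at a fold change above 1.2 and 0 at a fold change above 2. It was 0 above the median signal, where Anxa13 and Trpv6 were not tested because they are dimmer. With arrays left out it was 1 to 2 and 1 to 3. Centring each array on the median of the genes tested, chosen after the data had been seen, gave 319 lower and 264 higher genes against 385 and 180, moved the median of all genes to 0.05 and kept the 5 calls of the S100 and annexin genes.

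Of the 5 genes, S100a11 passed in the fewest of these alternatives. It did not pass with the unmoderated test, trend and robust variance, quantile normalization, centring on all transcript clusters or above the median signal, and S100a10 did not pass with array weights. The small differences of the calprotectin genes changed sign. S100a8 was at -0.12 with array weights and between -0.18 and 0.21 with arrays left out (negative without SJG replicate 2, at -0.17, or diabetic replicate 3). S100a9 was at 0.023 with array weights, at 0.019 with centring on the genes tested and between -0.13 and 0.067 with arrays left out (positive without SJG replicate 1, at 0.047, or diabetic replicate 1). Same-numbered arrays did not deviate together (correlations of -0.02, -0.29 and -0.00 over genes for numbers 1 to 3), so the numbers are not taken as pairs. With the replicate block 5 of the 10 genes and 634 of all genes passed. Macrophage markers, 7 of 12 called, were 0 with the unmoderated test, 4 with centring on all transcript clusters, 2 at a fold change above 2, 2 without SJG replicate 2 or diabetic replicate 2, 3 without diabetic replicate 1, 4 without SJG replicate 1 and 10 without diabetic replicate 3. Neutrophil markers, 0 of 11 called, were 2, 1 in each direction, with array weights or without diabetic replicate 3, and 1 at a fold change above 1.2 or without SJG replicate 1 or 2.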
